A study of Mus musculus with 9 samples.

Results

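The mitochondrial ribosomal protein genes are the nuclear genes whose symbols begin with Mrpl (large subunit) or Mrps (small subunit) followed by a digit. In the count table of this series 78 of 47643 genes carried such a symbol after pseudogenes marked -ps were left out, 49 of the large and 29 of the small subunit. Of these, 77 had enough reads to be tested, 48 of the large and 29 of the small subunit.

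The mitochondrial ribosome translates the few mRNAs that the mitochondrial genome encodes, all of which are for subunits of the respiratory chain and of the ATP synthase. Its rRNAs are transcribed inside the organelle, whereas every one of its proteins is made in the cytosol and imported, so that both genomes must supply the parts of each subunit. Hematopoietic stem cells (HSCs) are known to rest with low mitochondrial activity and to need mitochondrial function when they divide and differentiate.

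The data are RNA-seq of donor-derived long-term HSCs, sorted as Lin-cKit+Sca1+Flk2-CD48-CD150+ from C57BL/6 marrow grown in lethally irradiated recipients. TKO marrow was homozygous for floxed Pik3ca (lox/lox) and floxed Pik3cb (lox/lox), had no intact Pik3cd (Pik3cd-/-) and carried Mx1-Cre; δKO marrow had the same floxed and deleted alleles without Cre, and WT marrow carried Mx1-Cre alone. The recipients of every group received 2 injections of 250 μg pIpC, an interferon inducer, 48 hours apart, and marrow was taken 4 weeks later. The TKO genotype is designed to remove the p110α, p110β and p110δ catalytic subunits of class IA PI3K, and the δKO genotype p110δ alone. Cre was driven by the interferon-responsive Mx1 promoter, which is not restricted to HSCs, and it was carried by WT and TKO but not by δKO cells. By the extraction protocol the marrow of 7 recipients per group was pooled before sorting, whereas the design text of the series calls the 3 libraries of a genotype biological replicates with 2 technical replicates each. The sources do not settle whether the libraries come from separate animals. Every n and ± SD here is therefore over the 3 libraries of a genotype, whose spread may be partly technical. The edgeR p-values and SEs of the main fit rest on this spread pooled over all 9 libraries. The comparisons ask how loss of p110δ (δKO versus WT), of the other isoforms on top of it (TKO versus δKO), and of all 3 (TKO versus WT) relates to these mRNAs.

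Libraries held 31300343 to 60386097 counts. Between 21362 and 22703 genes were detected in 6 of them, but 18180 in δKO replicate 1, 18500 in the unnumbered δKO library and 19703 in TKO replicate 2. Of the targeted genes, Pik3cb was at 25.5 to 33.9 CPM (read counts scaled to the size of the library) in TKO and 33.2 to 101 in the other libraries, Pik3cd was at 98.2 to 139 in WT and 38.5 to 91.2 elsewhere, and Pik3ca was at 52.8 to 68.0 in TKO against 45.8 to 65.0 in WT. Whole-gene counts do not resolve the excised exons. HSC markers were detected in every library, with summed levels of 1096 to 1476 CPM (WT), 1225 to 2687 (δKO) and 1736 to 2127 (TKO). Neutrophil markers summed to 5555 to 12868 CPM (WT), 277 to 12803 (δKO) and 170 to 3413 (TKO), and 7 T and NK cell markers to 82.7 to 237 CPM (WT), 55.3 to 193 (δKO) and 34.7 to 71.9 (TKO). Of the latter Cd3e and Cd3g were at 0 in all 9 libraries, and the largest part was Nkg7 in 8 of them and Lck, at 51.4 CPM, in δKO replicate 1. In such bulk samples fewer cells of a type and less RNA per cell cannot be told apart, and the part of these marker levels in the values below was not tested.

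Promoter sequences were examined first, for letters that some of these genes have in common. RefSeq windows (GRCm38.p6) of 250 bases upstream of the start were found for 69 of the 78 genes, in 75 windows. They were searched on both strands for the letters CCGGAAG, a core bound by ETS factors such as GABPA, for GCGCATGC, bound by NRF1, and for AAGATGGC, bound by YY1, all of which textbooks connect with nuclear genes of mitochondria. At least 1 of these was present in 27 of the 75 windows (36%), against 10.2% of all 32851 windows. The ETS letters stood in 24% of the windows of mitochondrial ribosomal protein genes against 6.91% of all windows, the NRF1 letters in 10.7% against 2.26%, and the YY1 letters in 5.33% against 1.56%. The NRF1 letters were in 7 of 48 large subunit windows and 1 of 27 small subunit windows. Median GC content was 58.4% in these windows and 52.4% in all, so the 2 sets also differ in base composition. No set of expressed genes or of windows with like GC content was compared, so whether the excess is particular to these genes was not tested. Of the tested genes, 26 with a match had a median WT level of 5.9 CPM per kb of exon and 42 without one 7.42, and the median log2 fold changes were -0.15 and -0.11 in TKO versus WT, -0.12 and -0.04 in TKO versus δKO, and 0.05 and 0.01 in δKO versus WT. A match is only a run of letters and shows no binding.

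The following upstream sequences, cut where any annotated exon begins, show the small subunit genes whose libraries are discussed most below (Mrps9 and Mrps17), the small subunit gene nearest to a floxed gene (Mrps22) and a large subunit gene with both ETS and NRF1 letters (Mrpl22); capitals mark those letters. They lie at chr1:42850983-42851232 (+), chr5:129715247-129715496 (+), chr9:98601680-98601929 (-) and chr11:58171414-58171660 (+).
Mrps9: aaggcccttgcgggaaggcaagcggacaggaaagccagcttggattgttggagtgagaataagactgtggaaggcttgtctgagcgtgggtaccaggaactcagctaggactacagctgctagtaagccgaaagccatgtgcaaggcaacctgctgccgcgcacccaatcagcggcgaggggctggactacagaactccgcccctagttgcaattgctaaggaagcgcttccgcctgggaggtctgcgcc
Mrps17: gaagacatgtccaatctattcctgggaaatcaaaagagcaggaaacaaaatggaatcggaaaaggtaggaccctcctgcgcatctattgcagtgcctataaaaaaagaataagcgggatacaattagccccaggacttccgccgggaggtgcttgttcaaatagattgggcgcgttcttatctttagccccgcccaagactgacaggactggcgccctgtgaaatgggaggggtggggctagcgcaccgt
Mrps22: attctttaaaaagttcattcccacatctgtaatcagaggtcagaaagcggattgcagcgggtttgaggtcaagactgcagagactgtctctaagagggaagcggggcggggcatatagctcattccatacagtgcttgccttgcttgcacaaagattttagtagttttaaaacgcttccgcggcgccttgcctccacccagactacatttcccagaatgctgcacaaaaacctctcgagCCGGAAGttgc
Mrpl22: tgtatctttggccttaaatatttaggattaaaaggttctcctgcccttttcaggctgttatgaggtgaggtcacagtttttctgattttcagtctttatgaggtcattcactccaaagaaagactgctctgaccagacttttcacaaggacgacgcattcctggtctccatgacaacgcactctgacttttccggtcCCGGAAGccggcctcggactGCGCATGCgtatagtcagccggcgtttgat

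In WT HSCs nearly all of these genes were transcribed at moderate levels. Per kb of exon, the 77 tested genes had a median of 6.37 CPM in WT, against 3.04 for all 18205 tested genes and 4.32 for the 13360 protein-coding ones. Large subunit genes had a median level of 7.91 CPM per kb in WT and small subunit genes 4.92. In δKO these medians were 6.78 and 5.61, and in TKO 7.5 and 3.5. The quartiles of the subunits overlapped in WT, at 4.34 to 11.9 for the large and 2.67 to 7.19 for the small subunit.

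**Figure D1:**
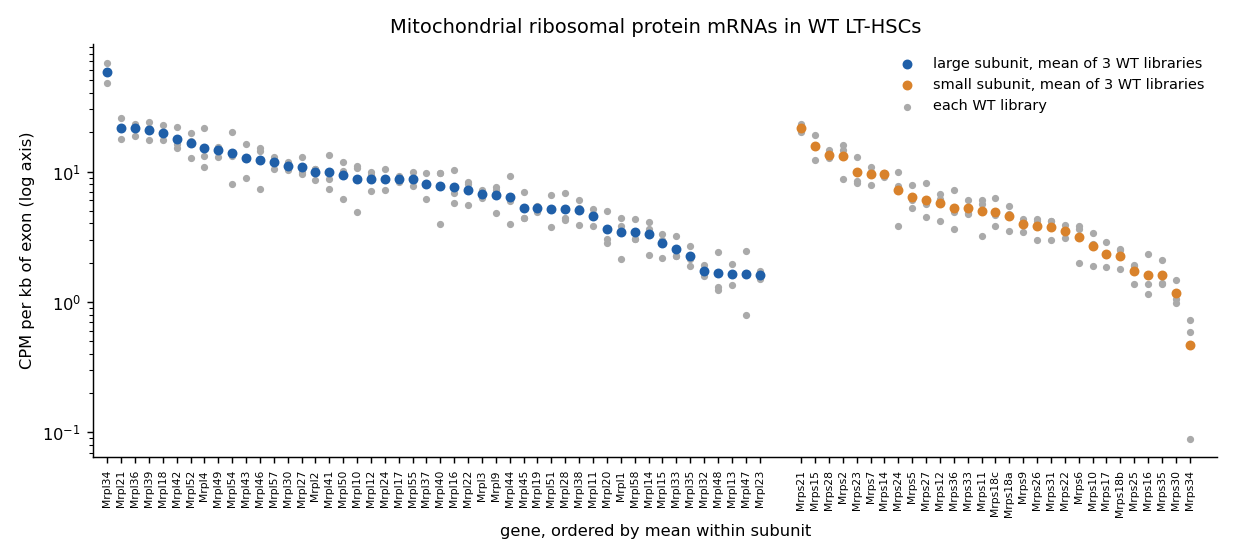
Level of each tested gene in WT HSCs in CPM per kb of exon, on a log axis. Colored points are means of 3 WT libraries, gray points are the libraries, and genes are ordered within each subunit; Mrpl34 stands above the rest of the large subunit and Mrps34 below the rest of the small subunit.

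Mrpl34, a small protein with a bacterial homologue, was highest at 58.2 ± 10.5 CPM per kb (SD, n = 3), followed by Mrpl21 at 21.6 ± 3.97 and Mrpl36 at 21.5 ± 2.32, which do not differ beyond their spread. The small subunit was led by Mrps21 at 21.6 ± 1.48 CPM per kb, Mrps15 at 15.7 ± 3.41 and Mrps28 at 13.5 ± 1.02. The lowest of the large subunit were Mrpl23, Mrpl47 and Mrpl13, at 1.62 ± 0.109, 1.64 ± 0.838 and 1.65 ± 0.286 CPM per kb, and these also overlap. The lowest of the small subunit were Mrps34 at 0.468 ± 0.335, Mrps30 at 1.17 ± 0.257 and Mrps16 at 1.62 ± 0.638 CPM per kb. Mrps30 and Mrps18a keep small subunit symbols although structures of the mammalian ribosome place their proteins in the large subunit, and they were counted here by symbol.

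Mrpl53 was the 1 gene that could not be tested. It had 0 counts in all 9 libraries, and 88% of its 790 exon bases are shared on the same strand with another annotated gene, Gm42688. Mrps34 shares 77.8% of its exon bases with Nme3 and Mapk8ip3, and Mrps25 69.8% with Nr2c2 on the opposite strand. In all, 33 of the 78 genes overlap exons of another gene, and because the libraries keep no strand their reads cannot be told apart from those of the partner there. The 5 pseudogenes left out summed to 11 to 148 counts per library.

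The summed levels of these mRNAs overlapped between the genotypes. Large subunit mRNAs summed to 1018 ± 48.8 CPM (WT), 1049 ± 91.2 (δKO) and 972 ± 354 (TKO) (SD, n = 3 each), and small subunit mRNAs to 428 ± 28, 480 ± 56.9 and 413 ± 86.5. TKO replicates 1, 2 and 3 had large subunit sums of 810, 1378 and 728 CPM, so the highest and the lowest of the 9 libraries were both TKO. The ratio of large to small subunit CPM was 2.38 ± 0.101 (WT), 2.20 ± 0.200 (δKO) and 2.33 ± 0.462 (TKO), with 1.89 and 2.81 in TKO replicates 1 and 2 as the extremes. The genes together took 0.120% to 0.171% of all counts.

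The median deviation of the 77 genes from their own mean over the 9 libraries, on the log2 CPM scale, was 0.07, 0.16 and 0.12 in WT. In δKO it was -0.17 in replicate 1, 0.36 in replicate 2 and -0.18 in the unnumbered library. In TKO it was -0.10, 0.43 and -0.35. The WT libraries thus lay together, and both knockout genotypes held 1 high library and 2 low ones. The scatter of single genes was widest in the 2 δKO libraries with the fewest genes detected, with an SD of these deviations of 1.33 in replicate 1 and 0.92 in the unnumbered one, against 0.36 to 0.69 in the other 7 libraries. In δKO replicate 1, 31 of 77 genes lay over 2-fold from their mean, 22 of them below, compared with 17 in the unnumbered δKO library, 12 in TKO replicate 1, 8 in TKO replicate 2 and 1 to 4 elsewhere. Over all genes tested the SD was wider still in these 2 libraries, at 1.79 and 1.54 against 0.94 to 1.31 in the other 7, and the medians were -0.23 and -0.13, so the low and scattered values there were seen over all genes too. The 77 genes had a median of 274 counts in δKO replicate 1, against 357 to 908 in the other libraries.

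**Figure D2:**
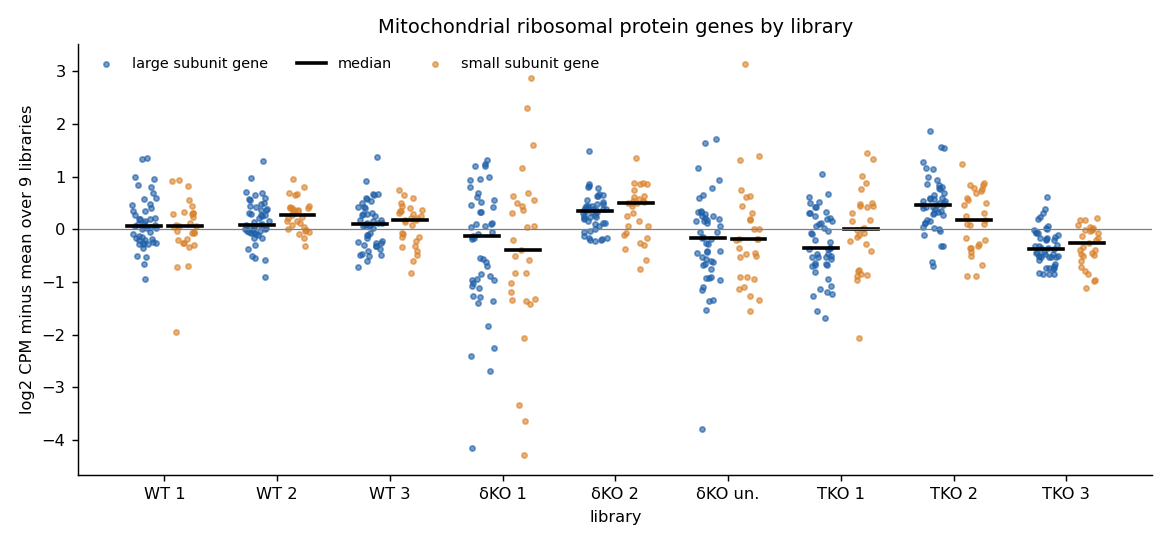
Deviation of each tested gene from its mean over 9 libraries, in log2 CPM, by library (WT, δKO and TKO; un., unnumbered). Points are genes, blue for the large and orange for the small subunit, and bars are medians; the points of δKO replicate 1 spread most, with an SD of 1.33, and TKO replicate 2 lies high at a median of 0.43.

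The same pattern held for spread and rank. The median SD of a gene over the 3 libraries of its genotype was 0.32 log2 CPM (WT), 0.80 (δKO) and 0.60 (TKO), and over all tested genes it was 0.47, 1.01 and 0.62. Across the 77 genes, which are not independent replicates, Spearman's rho between libraries of 1 genotype was 0.881 to 0.912 in WT, 0.738 to 0.860 in TKO and 0.482 to 0.749 in δKO, where the same gene lengths and library method enter every value. The 2 narrowest ranges over the 9 libraries were 0.62 and 0.73 log2 CPM in the large subunit (Mrpl3 and Mrpl37) and 1.29 and 1.34 in the small subunit (Mrps31 and Mrps14). The 2 widest were 5.65 and 4.54 in the large (Mrpl45 and Mrpl43) and 7.44 and 4.97 in the small subunit (Mrps34 and Mrps6), and in each of these 4 genes δKO replicate 1 was the lowest library. Mrps34 had 0 counts there and Mrps6 and Mrpl45 had 6 and 12.

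No mitochondrial ribosomal protein gene changed between genotypes at an adjusted p under 0.05 (edgeR quasi-likelihood test over all genes). In TKO versus WT 0 of 77 were called, beside 0.00549% of all genes tested, and the smallest p was 0.128. DESeq2 also called 0 of 77, both when fitted on all libraries, where it called 0.33% of all genes, and on the groups compared, where it called 2.61%. At an unadjusted p under 0.05 there were 0 higher and 0 lower in the edgeR fit, against 1.68% and 2.5% of all genes. In TKO versus δKO 0 of 77 were called with a background of 0%, and by DESeq2 0 with backgrounds of 1.85% and 0.676%. At an unadjusted p under 0.05, 0 were higher and 3 (3.9%) lower, against 4.6% and 5.56% of all genes. In δKO versus WT 0 of 77 were called with a background of 0.00549%, and by DESeq2 0 with backgrounds of 0.445% and 0.423%. There, 1 gene was higher and 1 lower at an unadjusted p under 0.05, each 1.3% of the 77, against 3.65% and 3.36% of all genes. None of these shares exceeded its background.

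The median log2 fold change was -0.12 in TKO versus WT, with 29 genes above and 48 below 0, while that of all genes was 0.02. By subunit it was -0.11 for 48 large and -0.15 for 29 small subunit genes. In TKO versus δKO the median was -0.07, close to the -0.06 of all genes, with 0.02 in the large and -0.23 in the small subunit. In δKO versus WT it was 0.04 beside 0.05 for all genes, with 0.05 and -0.04 in the subunits. These comparisons share their libraries in pairs, and TKO replicate 2 weighs on both that involve TKO: without it the median was -0.32 against WT, with 21 above and 56 below 0, and -0.29 against δKO, with 22 above and 55 below. Without TKO replicate 3 the median against WT was -0.01.

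**Figure D3:**
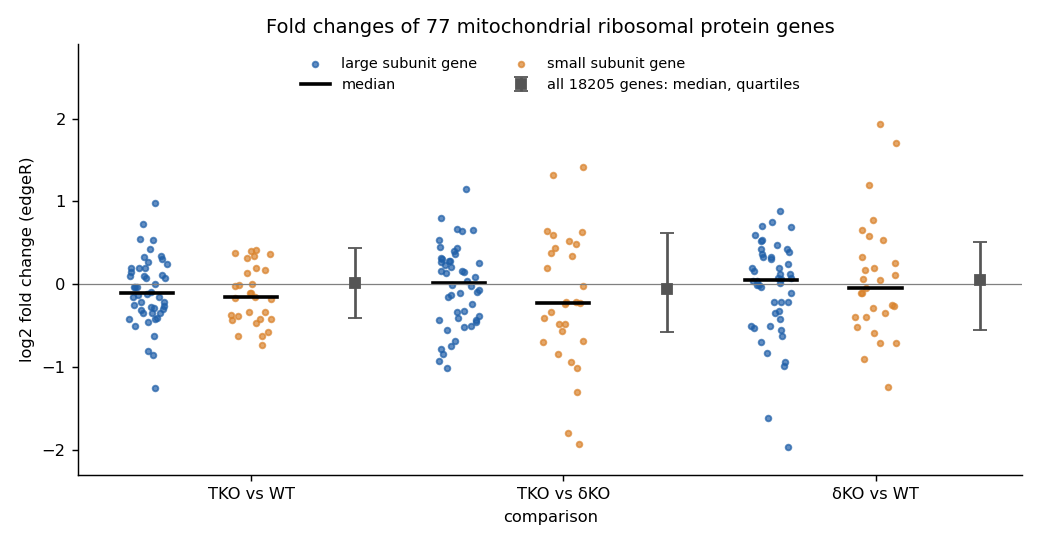
Log2 fold changes of 77 genes in each comparison from edgeR. Points are genes by subunit, black bars are medians, and gray squares with bars are the median and quartiles of all 18205 tested genes; the medians of the genes lie between -0.23 and 0.05, inside the quartiles of all genes.

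The precision of these values sets what could have been seen. The median standard error of a log2 fold change was 0.57 in each comparison, and the median 95% confidence interval reached 1.25 to either side. The interval lay wholly within a 2-fold change for 5 of 77 genes in TKO versus WT and for 4 in each of the other comparisons, and within a 4-fold change for 60, 49 and 56. For all but these few genes a change of 2-fold or more, up or down, was therefore still inside the interval, and the missing calls do not show equal levels. Dispersion was estimated over all 9 libraries, so the wider scatter of the δKO libraries also enters the errors of TKO versus WT. The share of all genes at an unadjusted edgeR p under 0.05 in TKO versus WT was 4.19% in this fit. It was 9.09% when only the groups compared were fitted, and the share of the 77 was 0% in both fits.

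Mrps9, a small subunit protein with a bacterial homologue, had the most even pattern among genes with an unadjusted p under 0.05. The gene (chr1:42851233-42905683, mm10, plus strand) was at 19.8, 24.8 and 23.5 CPM (WT), at 34.3, 35.4 and 38.2 (δKO) and at 21.4, 13.6 and 25.2 (TKO). All 3 δKO libraries thus lay above every WT and TKO library, whereas WT and TKO overlapped. The log2 fold change was -0.84 ± 0.364 (SE) in TKO versus δKO (edgeR adjusted p = 0.478) and 0.66 ± 0.363 in δKO versus WT (edgeR adjusted p = 0.711). Without δKO replicate 1 it was -0.88 in TKO versus δKO (edgeR adjusted p = 0.385).

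For Mrps17 and Mrps18c the lower mean in TKO than in δKO rested largely on 1 library. Mrps17 (chr5:129715497-129722556, plus strand) was at 12, 18.8 and 14.8 CPM (WT), 145, 16.2 and 14.3 (δKO) and 14.8, 23.5 and 12 (TKO), so that δKO replicate 1 alone stood apart. Its log2 fold change was -1.80 ± 0.771 in TKO versus δKO (edgeR adjusted p = 0.473) and 1.94 ± 0.774 in δKO versus WT (edgeR adjusted p = 0.699), and without δKO replicate 1 these became 0.13 and 0.01. Mrps18c (chr5:100798627-100804471, plus strand) encodes 1 of the several mammalian homologues of a single bacterial small subunit protein. It was at 5.02, 4.15 and 6.71 CPM (WT), 26.0, 4.38 and 5.97 (δKO) and 2.89, 4.3 and 2.37 (TKO). Every TKO library lay below every δKO library, but TKO replicate 2 and δKO replicate 2 were only 4.3 against 4.38. The log2 fold change of -1.93 ± 0.800 in TKO versus δKO (edgeR adjusted p = 0.465) was -0.70 without δKO replicate 1.

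Mrpl46 and Mrpl27 were lower in δKO than in WT in all libraries. Mrpl46 (chr7:78775236-78783531, minus strand), a large subunit protein found only in mitochondria, was at 10.4, 20.2 and 21.3 CPM (WT), 1.68, 8.83 and 2.80 (δKO) and 13.1, 9.27 and 7.35 (TKO). TKO overlapped both other genotypes. The log2 fold change in δKO versus WT was -1.96 ± 0.705 (edgeR adjusted p = 0.699) and stayed at -1.57 without δKO replicate 1. Mrpl27 (chr11:94653767-94660089, plus strand), the homologue of a bacterial protein beside the peptidyl transferase center, was at 12.7, 9.84 and 9.48 CPM (WT), 1.36, 5.72 and 3.28 (δKO) and 2.26, 7.59 and 3.62 (TKO). All WT libraries thus lay above all δKO and TKO libraries, and the latter overlapped. Its log2 fold change was -1.25 ± 0.762 in TKO versus WT (edgeR adjusted p = 1), -1.62 ± 0.770 in δKO versus WT (edgeR adjusted p = 0.699) and 0.37 ± 0.754 in TKO versus δKO (edgeR adjusted p = 0.893).

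**Figure D4:**
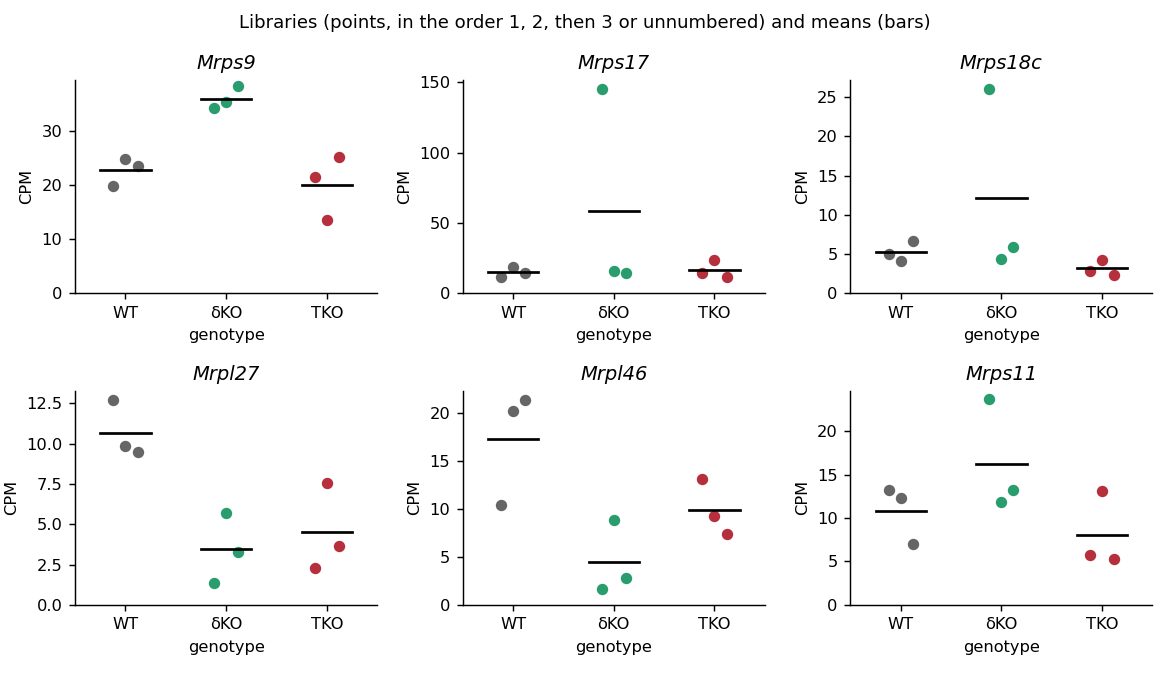
CPM of 6 genes in each library by genotype; points are libraries and bars are means of 3. Mrps9 was higher in the 3 δKO libraries than elsewhere, the δKO means of Mrps17 and Mrps18c rest on replicate 1, and Mrpl27 was higher in the 3 WT libraries than elsewhere.

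The plots by gene include Mrps11, a small subunit gene that starts next to Mrpl46 on the other strand and shares 173 exon bases with it. Mrps11 was chosen for this position after its values were seen. It was at 13.2, 12.3 and 6.95 CPM (WT), 23.7, 11.8 and 13.2 (δKO) and 5.70, 13.1 and 5.28 (TKO), and its log2 fold changes were 0.58 ± 0.585 in δKO versus WT and -1.01 ± 0.590 in TKO versus δKO, where those of Mrpl46 were -1.96 and 1.15 ± 0.690. The neighbors therefore had fold changes of opposite sign in these comparisons, which share the δKO libraries. In TKO versus WT both were negative, at -0.43 for Mrps11 and -0.80 for Mrpl46, and neither gene was called in any comparison. Counted over all genes, 33 of the tested ones form 32 such divergent pairs with starts within 1000 bases. Members of a pair had fold changes of the same sign in 16 of 32 pairs in TKO versus WT, 15 in TKO versus δKO and 10 in δKO versus WT.

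Counts of genotypes that do not overlap were also no higher than the background. In TKO versus WT no gene had all TKO libraries above all WT libraries (background 6.88%), and 4 genes, Mrpl21, Mrpl27, Mrps15 and Mrps33, had them below (5.19%, background 7.47%). In TKO versus δKO, Mrpl9 and Mrps16 were above (2.6%, background 6.98%) and Mrps9, Mrps18c and Mrps26 below (3.9%, background 4.74%). In δKO versus WT, Mrpl55, Mrpl57 and Mrps9 were above (3.9%, background 4.13%) and Mrpl27, Mrpl46, Mrps14, Mrps16 and Mrps31 below (6.49%, background 7.39%).

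Among those, Mrpl21 was at 42.4, 51.8 and 36.0 CPM (WT), 34.0, 40.6 and 14.2 (δKO) and 22.3, 34.9 and 27.6 (TKO). The TKO libraries were all below WT, but by as little as 34.9 against 36.0, and its log2 fold change was -0.62 ± 0.412. Mrps15, whose bacterial homologue binds early to the small subunit rRNA, was at 20.7, 26.8 and 32.2 CPM in WT and at 17.7, 16.5 and 19.1 in TKO, with 8.22, 30.5 and 35.5 in δKO, and its log2 fold change in TKO versus WT was -0.58 ± 0.507. Mrps16 was among the lowest genes, at 1.68, 2.67 and 1.55 CPM in δKO against 7.02, 5.96 and 2.73 in TKO, a log2 difference of 1.41 ± 0.793 in TKO versus δKO. Mrpl9 was at 7.22, 14.7 and 10.9 CPM in δKO and 20.8, 14.7 and 16.7 in TKO, a log2 difference of 0.67 ± 0.469, and the nearest libraries of the genotypes were equal to 3 digits. Mrps14 was at 29.5 to 31.9 CPM (WT), 14.7 to 24.3 (δKO) and 23.9 to 37.1 (TKO), so that only δKO lay below WT.

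The other genes with the smallest p-values had libraries that overlapped or 1 that stood out. In TKO versus WT the highest log2 fold change was that of Mrpl55, a large subunit protein without a bacterial homologue, at 0.98 ± 0.618. It was at 10.2, 8 and 8.64 CPM in WT and 10.5, 35.1 and 7.25 in TKO, and without TKO replicate 2 its log2 fold change was -0.01. Mrpl28 and Mrpl35 followed the same library, with 19.2 and 19.4 CPM in TKO replicate 2 against 5.84 to 9.43 and 7.90 to 11.2 in WT, and log2 fold changes of 0.73 ± 0.630 and 0.55 ± 0.548. Mrps5 was at 58.8, 74.5 and 26.9 CPM in TKO against 34.3 to 52.3 in WT and 31.3 to 36.6 in δKO, with log2 fold changes of 0.34 ± 0.379 and 0.63 ± 0.380. Mrpl33 was at 48.6, 35.3 and 10.3 CPM in δKO against 12.5 to 20.1 in TKO, a log2 difference of -1.01 ± 0.534 in TKO versus δKO. In δKO versus WT, Mrpl18 was at 8.30, 25.2 and 13.6 CPM against 24.2 to 31.6, and Mrpl39 at 118, 52.8 and 68.1 against 44.3 to 60.7, with log2 differences of -0.83 ± 0.522 and 0.59 ± 0.380.

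Of 9 genes chosen for a known special role, 2 had positive and 7 negative log2 fold changes in TKO versus WT, beside 29 and 48 of all 77. The split was 3 and 6 in TKO versus δKO and 6 and 3 in δKO versus WT. Mrpl10 and Mrpl12 form the stalk of the large subunit, which recruits translation factors, and Mrpl12 also binds the mitochondrial RNA polymerase. Mrpl10 was at 8.36 to 18.7 CPM (WT), 9.88 to 22.5 (δKO) and 12.5 to 22.3 (TKO). Mrpl12 was at 10.9 to 16 CPM in 8 libraries and at 0.700 in the unnumbered δKO library, where it had 19 counts. Mrps12, whose bacterial homologue sits at the decoding center, was at 4.32 to 7.05 CPM (WT), 1.95 to 12.4 (δKO) and 2.60 to 7.06 (TKO). Mrpl3, part of the peptidyl transferase region, was among the steadiest at 34.8 to 53.5 CPM over all libraries, and its log2 fold change was -0.03 ± 0.284 in TKO versus WT.

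Mrpl58, a large subunit protein that can release stalled peptides, was at 10.1 to 14.3 CPM (WT), 5.12 to 22.7 (δKO) and 3.27 to 14.1 (TKO). Mrpl44, which resembles a ribonuclease, was at 6.49 to 15.2 CPM (WT), 1.08 to 10.4 (δKO) and 4.61 to 7.27 (TKO). Mrps18a and Mrps18b, the relatives of Mrps18c, were at 13.0 to 20 and 3.72 to 5.32 CPM in WT and at 7.99 to 17.0 and 3.90 to 4.48 in TKO. Apart from Mrps18c, none of the genes named here by role had an unadjusted p under 0.05 in any comparison, and the ranges of their genotypes overlapped.

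A few genes lie on the same chromosome as an engineered locus and close to it. Mrpl47 is 0.257 Mb from Pik3ca, Mrps22 and Mrpl3 are 0.435 and 5.91 Mb from Pik3cb, and Mrpl20 is 6.1 Mb from Pik3cd. Mrpl47 was at 3.53, 7.32 and 10.9 CPM (WT), 13.7, 8.80 and 5.68 (δKO) and 2.10, 11.8 and 6.59 (TKO). Mrps22 was at 12.4, 15.6 and 13.7 CPM (WT), 5.15, 21.9 and 13.3 (δKO) and 13.2, 8.78 and 9.90 (TKO). Mrpl20 was at 8.28, 5.03 and 4.70 CPM (WT), 17.1, 8.05 and 8.07 (δKO) and 8.34, 7.03 and 3.98 (TKO). For each of these genes the genotypes overlapped, and no p was under 0.05.

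The RNAs that the mitochondrial genome encodes are the templates and the rRNA core of this ribosome. Summed mRNAs and summed rRNAs were lower in TKO replicates 1 and 3 than in every WT and δKO library. TKO replicate 2 was above every WT library for the rRNAs, at 171520 CPM. Of 13 mitochondrial mRNAs 10 were tested, and all 10 had lower values in TKO than in WT (median log2 fold change -0.52) and in TKO than in δKO (-0.66). None was called at an adjusted p under 0.05, and at an unadjusted p under 0.05 there were 2 lower against WT (mt-Co1 and mt-Nd2, background 2.5%) and 4 lower against δKO (mt-Co1, mt-Cytb, mt-Nd1 and mt-Nd2, background 5.56%). Their summed level was 10213 to 12176 CPM (WT), 9240 to 14751 (δKO) and 6182 to 9968 (TKO), so all TKO libraries lay below WT but not below every δKO library. The 2 mitochondrial rRNAs had log2 fold changes of -0.58 (mt-Rnr1) and -0.56 (mt-Rnr2) in TKO versus WT, with sums of 130503 to 163055 CPM in WT and 56363 to 171520 in TKO. Here too TKO replicate 2 was the high one. The summed mitochondrial mRNAs were at 6270, 9968 and 6182 CPM in TKO replicates 1, 2 and 3, where neutrophil markers summed to 170, 3413 and 961. In δKO they were at 9240, 11916 and 14751 CPM (replicates 1 and 2 and the unnumbered library) beside 277, 5030 and 12803 for neutrophil markers, and in WT at 12176, 10213 and 11355 beside 12868, 5555 and 11224. The library highest in neutrophil markers was thus also the highest in mitochondrial mRNAs within each genotype, and their part in these values was not tested. Without TKO replicate 2 alone the median of the rRNAs was -1.21 against WT and -1.33 against δKO (-0.57 and -0.69 with all libraries), with both rRNAs at an unadjusted p under 0.05, and the median of the mRNAs was -0.83 and -0.98, with 5 and 6 of 10 lower at such a p (background in that fit 2.89% and 4.68%) and 1 then higher in TKO than in δKO. Without TKO replicate 3 the rRNA medians were -0.26 and -0.38, and without TKO replicate 1 or 3 no mitochondrial mRNA had an unadjusted p under 0.05 in either comparison. Leaving out WT replicate 1 left 0 of 10 at such a p in TKO versus WT, and WT replicate 2 or 3 left 1 (mt-Co1). Leaving out δKO replicate 2 left 3, with 9 of 10 lower, in TKO versus δKO. Among the 10, mt-Co2, mt-Co3 and mt-Atp6 were at 0.381 to 5.05 CPM where mt-Co1 was at 2346 to 7107, and the other 3 mRNAs were at or near 0.

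**Figure D5:**
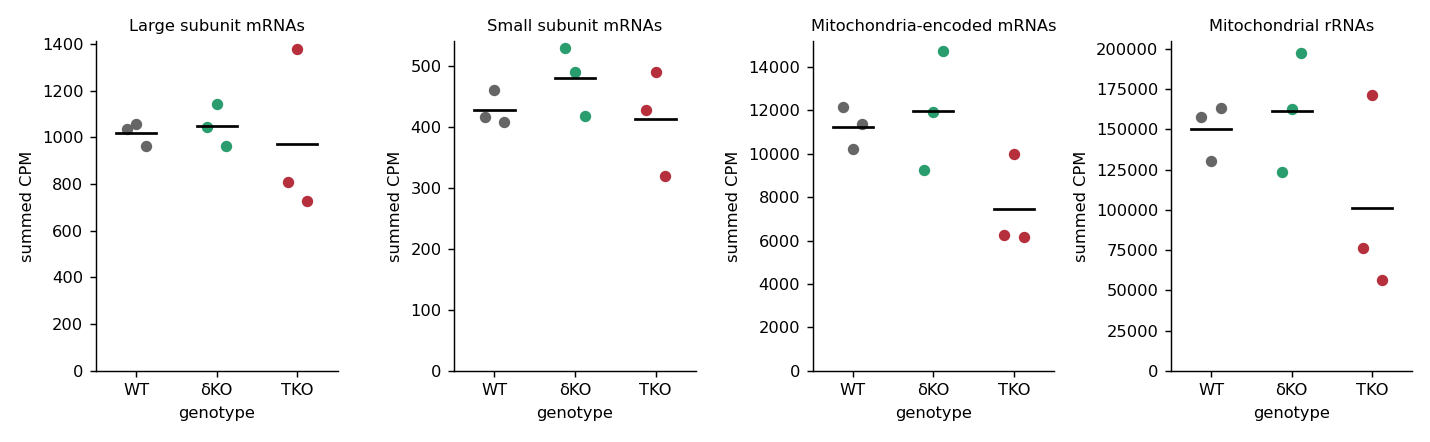
Summed CPM of large subunit mRNAs, small subunit mRNAs, mitochondria-encoded mRNAs and mitochondrial rRNAs in each library by genotype; points are libraries and bars are means of 3. Mitochondria-encoded mRNAs were at 6182 to 9968 CPM in TKO and 10213 to 12176 in WT, while the nuclear sums of the genotypes overlapped.

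Of the listed mitoribosomal proteins with other symbols, translation factors, assembly factors and aminoacyl-tRNA synthetases, edgeR called none. DESeq2 called 1 of these when fitted on the groups compared, Mpv17l2 in TKO versus WT. Its values for Nrf1 and Twnk, from the list of mitochondrial transcription and biogenesis, are given below. Of 6 tested mitoribosomal proteins with other symbols, 3 had positive and 3 negative log2 fold changes in TKO versus WT, 1 was positive and 5 were negative in TKO versus δKO, and 4 and 2 were so in δKO versus WT. Gadd45gip1 had the smallest p in TKO versus δKO, at 2.11, 15.8 and 22.5 CPM in δKO and 3.04, 3.52 and 4.83 in TKO (log2 fold change -1.83 ± 0.817). Of 11 translation factors, 3 had positive and 8 negative values in TKO versus δKO, 2 of the latter at an unadjusted p under 0.05 (background 5.56%): Gfm1, an elongation factor, at 57.7 to 95.6 CPM in δKO and 39.1 to 56.6 in TKO, and Mtif2, the initiation factor that brings the first tRNA, at 35.4 to 91.0 and 29.0 to 33.7. Their log2 fold changes were -0.76 ± 0.293 and -0.86 ± 0.371, and the δKO and TKO libraries of both did not overlap. This count was 0 without TKO replicate 1 or 3, with a covariate for genes detected, with the replicate block and when only the groups compared were fitted, and 1 without TKO replicate 2, δKO replicate 1 or any WT replicate. The split was 4 and 7 in TKO versus WT and 8 and 3 in δKO versus WT, with 0 at such a p.

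Of 23 assembly factors, 8 had positive and 15 negative log2 fold changes in TKO versus δKO, 2 of the latter at an unadjusted p under 0.05 (background 5.56%). These were Mtg1 and Rpusd4. Neither was at such a p without TKO replicate 3, without δKO replicate 1 (where Mpv17l2 was the 1), with the covariate for genes detected or with limma. Only Mtg1 was without TKO replicate 1 and when edgeR was fitted on the groups compared, and only Rpusd4 with DESeq2 in either fit. The count was 3 without δKO replicate 2 or the unnumbered δKO library. The split was 10 and 13 in TKO versus WT, with 0 at such a p. In δKO versus WT it was 14 and 9, with 2 higher at such a p (Mtg1 and Ngrn, background 3.65%). These 2 became 0 with the covariate for genes detected and Ngrn alone without δKO replicate 1. Only Mtg1 remained without TKO replicate 1 or 3 or WT replicate 1 or 3, with the replicate block and with only the groups compared. Without δKO replicate 2 there were 3 higher and 1 lower. Mpv17l2, an inner membrane protein of ribosome assembly named here after its values were seen, was at 17.8, 11.5 and 15.7 CPM (WT), 1.36, 12.4 and 12.6 (δKO) and 6.02, 4.85 and 6.68 (TKO). All TKO libraries thus lay below WT, with a log2 fold change of -1.36 ± 0.746 (edgeR adjusted p = 1). Mtg1, a GTPase of large subunit assembly, was at 93.3 CPM in δKO replicate 1 and at 2.28 to 5.61 in the other 8 libraries. Of 20 aminoacyl-tRNA synthetases and related genes, 14 had positive and 6 negative values in δKO versus WT, 4 and 1 of them at an unadjusted p under 0.05, where the background was 3.65% and 3.36%. The 4 became 1 without δKO replicate 1 or WT replicate 3 and with the replicate block, 2 without WT replicate 1 or 2 or the unnumbered δKO library, 5 without δKO replicate 2 and 0 with the covariate for genes detected, and the 1 became 0 with that covariate and without WT replicate 2. In TKO versus δKO, which shares the δKO libraries, 7 were positive and 13 negative, 3 of the latter at such a p (background 5.56%). These 3 became 1 without TKO replicate 3 and with the covariate, 2 without TKO replicate 1, δKO replicate 1 or the unnumbered δKO library, and 5 without δKO replicate 2. In TKO versus WT 10 were positive and 10 negative, with 0 at such a p. Mars2, which charges the mitochondrial tRNA for methionine, was at 43.2, 29.4 and 69.2 CPM in δKO, 19.3 to 28.1 in WT and 17.8 to 26.0 in TKO, so δKO lay above both.

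Of 18 genes of mitochondrial transcription and biogenesis, 9 lay above 0 and 9 below on the log2 scale when TKO was compared with WT, with 1 higher at an unadjusted p under 0.05 (Twnk, background 1.68%). In TKO versus δKO 7 lay above and 11 below, 2 of the latter at such a p (Gabpa and Nrf1, background 5.56%), and in δKO versus WT 12 above and 6 below, 2 of the former at such a p (Nrf1 and Twnk, background 3.65%). With the covariate for genes detected no gene of the list was at such a p in either comparison with δKO. Without TKO replicate 1 or 3, δKO replicate 1 or WT replicate 2 only Nrf1 remained among the lower ones in TKO versus δKO, and without WT replicate 1 or 2 or δKO replicate 1 only Nrf1 among the higher ones in δKO versus WT. Nrf1, the factor whose letters were sought above, was at 147, 46.8 and 108 CPM in δKO, 38.4 to 41.4 in WT and 31.6 to 44.5 in TKO, with log2 fold changes of -1.41 ± 0.381 in TKO versus δKO (edgeR adjusted p = 0.465) and 1.35 ± 0.380 in δKO versus WT. Its high values were in the 2 δKO libraries with the fewest genes detected, and DESeq2 on all libraries gave an adjusted p of 0.0439 in TKO versus δKO. Twnk, the helicase of mitochondrial DNA replication, was at 17.5, 20.9 and 24.7 CPM (WT), 66.6, 25.8 and 45.7 (δKO) and 81.6, 57.0 and 30.4 (TKO). WT thus lay below all other libraries, with a log2 fold change of 1.42 ± 0.441 in TKO versus WT (edgeR adjusted p = 1; DESeq2 on the groups compared, adjusted p = 0.00934). Twnk overlaps 33.4% of the exon bases of Mrpl43 on the opposite strand, and Mrpl43 was at 24.8, 13.5 and 19.0 CPM in WT and 9.5, 51.1 and 9.77 in TKO.

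Cytosolic ribosomal protein genes, a list added after the data were seen, gave a measure of ribosomal mRNAs outside mitochondria. Of 80 tested, 49 lay above 0 and 31 below when TKO was compared with WT, with a median log2 fold change of 0.06, and the medians were 0.00 in TKO versus δKO and 0.06 in δKO versus WT. Their sums overlapped between the genotypes, at 23581 to 28760 CPM (WT), 22690 to 28886 (δKO) and 20862 to 38882 (TKO). TKO replicates 1, 2 and 3 were at 21105, 38882 and 20862 CPM. The highest and the lowest of the 9 libraries were thus both TKO here as well, as for the large subunit mRNAs of mitochondria.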

How the data were processed

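RNA was amplified with the Ovation RNA-Seq System V2, whose double-stranded cDNA does not keep strand. Per the labels, reads were handled with Trim Galore 0.3.7, FastQC 0.11.4, STAR 2.5.1b (mm10) and DESeq2; the study's methods name STAR for the counts per gene too, and its strand setting is not given in the sources used here. The authors deposited a table of raw read counts per gene, which was used throughout, and a table of signal values, the counts after DESeq2 normalization, used only in 1 alternative. All 9 columns of each were mapped; 1 raw δKO column carries another number than its label and is called the unnumbered δKO library.

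Counts were fitted with edgeR 4.0.16 (R 4.3.3; quasi-likelihood, two-sided, TMM scaling, 1 mean per genotype over 9 libraries, 6 residual degrees of freedom). filterByExpr (minimum count 10, total 15) kept 18205 of 47643 genes, and p-values were adjusted over all of these by the Benjamini-Hochberg method. The common biological coefficient of variation was 0.805. The SE given with a log2 fold change is its absolute value divided by the square root of the quasi-likelihood F statistic. CPM are scaled by TMM; exon lengths and positions are from GENCODE vM21 (mm10). DESeq2 1.42.0 and limma 3.58.1 (pseudocount 1) were alternatives. The scripts were tested on simulated counts.

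Genes were named by rule: the 4 with the smallest p in each direction per comparison, the 3 highest and 3 lowest per subunit per exon length in WT, those within 10 Mb of a targeted gene, a set by role, the 2 widest and 2 narrowest ranges per subunit, those not tested, and at most 2 per list of related genes. The members and lists were chosen with earlier results of these data known, and the cytosolic ribosomal protein list was added last.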

Additional observations from a re-analysis of the deposited data

How the results depend on the processing

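In 19 alternatives (scaling by RLE or upper quartiles, no filter, 10 counts in every library, only the groups compared, a covariate for genes detected, DESeq2, limma, the replicate block, and leaving out each library) the number of mitochondrial ribosomal protein genes called stayed at 0 in every comparison. Their median log2 fold change ranged from -0.32 to -0.01 in TKO versus WT, -0.29 to 0.20 in TKO versus δKO and -0.14 to 0.07 in δKO versus WT, so only the first kept its sign. Upper-quartile scaling moved the median of all genes from -0.06 to 0.08 in TKO versus δKO and from 0.05 to -0.10 in δKO versus WT, where 31 genes were then higher and 46 lower. The median of the large minus that of the small subunit in TKO versus δKO was 0.25, and -0.16 with limma on the normalized values. Leaving out single libraries it ranged from -0.08 to 0.40, and from -0.20 to 0.11 around 0.05 in TKO versus WT; the cause was not tested. The number at an unadjusted p under 0.05 ranged from 0 to 2 in TKO versus WT, 0 to 6 in TKO versus δKO and 0 to 5 in δKO versus WT, and in each alternative its share was below that of all genes in the same fit. The 6, without δKO replicate 1, were 7.79% beside 12.2% of all genes, all 6 of them lower (6.7% of all genes lower), and the 5, without δKO replicate 2, were 6.49% beside 16.1%. By direction, 3 more shares were above that of all genes, each among lower genes: 6.49% beside 4.68% without TKO replicate 2 and 3.9% beside 3.47% with the replicate block in TKO versus δKO, and 2.67% beside 1.8% with 10 counts in every library in δKO versus WT.

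Of 34 results for named genes, 4 turned in direction. With the covariate for genes detected, Mrpl39 in δKO versus WT went to -0.13 and Mrps18c to -0.16. Leaving out single libraries, Mrps18c in δKO versus WT ranged from -0.03 to 1.60, Mrps17 in TKO versus δKO from -2.26 to 0.13, and Mrpl55 in TKO versus WT from -0.01 to 1.35. Same-numbered libraries deviated together with r of -0.0359 to 0.0829, and differently numbered ones with r of -0.0917 to 0.0871. These values gave no sign of pairing by number. Deviations from means of so few libraries cannot decide it, and the unnumbered library could not enter. A replicate block on the 8 numbered libraries gave medians of -0.15, 0.02 and -0.12 and called 0 genes.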
